A study of Rattus norvegicus with 2 samples.

Results

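The secreted antagonist gene Grem1 and the ligand genes Bmp2 and Inhba were followed through the cells of rat joint tissue, as 3 of the 18147 genes listed for both single-cell libraries of the series. They were chosen by their measured CIA to control ratios in these same libraries, Grem1 in opposite directions in lining cells and in cells with chondrocyte markers. Their ratios between the libraries are therefore a description, and no test was run on them. The files give them the Ensembl identifiers ENSRNOG00000026053 (Grem1), ENSRNOG00000021276 (Bmp2) and ENSRNOG00000014320 (Inhba).

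The control library came from cartilage of untreated Lewis rats, an inbred strain prone to experimental arthritis (called sham in the series' design text). The CIA library (collagen-induced arthritis) came from cartilage of Lewis rats that had received type II collagen with Complete Freund's Adjuvant, collected on day 14. Each group had 1 library, so ratios compare 2 libraries, lack a replicate check and do not stand for the conditions. No source used here gives the number of rats in a library, their age or the joint.

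Bone morphogenetic proteins and activins are secreted dimers of the TGF-beta family that bind paired type I and type II receptors and signal through Smad proteins. Bmp2 encodes a bone morphogenetic protein that drives cartilage and bone formation, and Grem1 encodes gremlin, which binds that protein outside the cell and keeps it from its receptors. Inhba encodes the beta A subunit, whose dimer is activin A, a ligand bound and held by follistatin and made by fibroblasts of inflamed joints. Articular cartilage is known to depend on a balance of these ligands and their antagonists.

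The 250 bases before the transcript start that RefSeq gives for rat assembly GRCr8 were matched for 2 of the 3 genes, Grem1 and Inhba, and they are shown because the genes differed in opposite directions in chondrocytes. Both lie on the minus strand, at chr3:120978320-120978569 for Grem1 and at chr17:53804509-53804758 for Inhba, and the latter is the start of 1 transcript of the gene. Capitals mark the letters of 3 core promoter motifs, searched on both strands: TATAAA, the core of the TATA box, then CCAAT, which names its own box, and also GGGCGG, which is known as the GC box. They do not overlap each other here.
Grem1: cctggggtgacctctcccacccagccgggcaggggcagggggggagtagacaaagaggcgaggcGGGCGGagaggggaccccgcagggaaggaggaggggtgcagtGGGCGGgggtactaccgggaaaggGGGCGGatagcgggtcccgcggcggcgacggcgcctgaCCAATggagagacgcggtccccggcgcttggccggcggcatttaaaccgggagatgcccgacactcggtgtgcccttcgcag
Inhba: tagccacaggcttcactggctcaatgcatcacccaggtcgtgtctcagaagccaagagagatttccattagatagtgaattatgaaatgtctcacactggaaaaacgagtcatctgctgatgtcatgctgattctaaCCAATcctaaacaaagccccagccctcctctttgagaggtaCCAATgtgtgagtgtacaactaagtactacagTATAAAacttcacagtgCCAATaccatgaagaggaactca
The windows differed in base composition, with a GC content of 72% and 25 CpG dinucleotides for Grem1 and a GC content of 43.6% and 2 CpG dinucleotides for Inhba, beside a median GC content of 51.2% over the 33469 RefSeq windows of the same length. The Grem1 window held 3 GC boxes, 186, 144 and 120 bases before the start, and 1 CCAAT box at 82 bases, and TATAAA was not among its letters. The Inhba window held TATAAA 40 bases before the start and 3 CCAAT boxes at 113, 72 and 23 bases, and GGGCGG was not among its letters. Of all windows, 12.9% held TATAAA, 34.0% CCAAT and 30.5% GGGCGG. The AP-1 letters TGANTCA (6.34% of all windows) and the CRE letters TGACGTCA (1.59%) were in neither window. A match describes letters and not a bound site.

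The control library held 76927821 UMIs (unique molecular identifiers, each 1 captured RNA molecule) in 5456 barcodes at a median of 11873 per cell, and the CIA library 105752977 in 8622 barcodes at a median of 10541. After filters 5346 and 8416 cells were kept, and 52 of the 24-base barcodes occurred in both libraries. Cells were sorted into gates by cuts on the marker levels of each cell, never on the 3 genes themselves, and a gate is a range on a marker scale, not a cell type. Chondrocytes were cells with at least 1000 CPM (a gene's UMIs scaled so that every sum of cells has the same total) of Col2a1, the main cartilage collagen (330 control and 41 CIA cells, of which 27 and 9 lay within 2-fold above the cut). Lining cells had at least 10000 CPM of Prg4, the lubricin gene, and lining markers (217 and 602 cells, 41 and 123 near the cut), and fibroblasts had type I and III collagen (2331 and 3265 cells, 125 and 146 near the cut). Macrophages (1076 and 2951 cells, 214 and 386 near the cut) and endothelial cells (646 and 528 cells, 108 and 35 near the cut) were gated on their own marker sums.

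The chondrocyte gate held other kinds of cells in control than in CIA. Of the control cells, 268 of 330 passed 1000 CPM of Chad, the chondroadherin gene of articular chondrocytes, and 49 others passed 10000 CPM of Col1a1, the type I collagen gene of fibrous tissue. In the CIA library 10 of its 41 cells were Chad-high, 21 were Col1a1-high and 10 were neither, against 13 such control cells. The gate's median Chad level was 10035 CPM in control and 0 in CIA cells, and its median Col1a1 level 1408 and 10400 CPM. Lining cells split by Clic5, a chloride channel gene of the lining, into 126 positive and 91 negative control cells and 134 and 468 CIA cells, and the median Col1a1 level of the lining gate was 3400 and 10847 CPM. Clustered on all genes, 128 of the 217 control lining cells fell in a cluster led by Clic5, F13a1 and Myoc, which took 14 of the 602 CIA lining cells. A cluster led by Gfpt2, Has1 and Hbegf, with Inhba among its leading genes, held 432 of the CIA and 51 of the control lining cells. The lining gate thus lay mostly in different clusters in the 2 libraries, and every lining ratio below compares such cells. The cluster led by Chad and Col2a1 held 306 of the 330 control and 22 of the 41 CIA chondrocytes. Macrophage markers, which stand for free RNA in cells of other types, had a median sum of 853 and 1587 CPM in chondrocytes and of 795 and 1405 CPM in lining cells. In macrophages themselves the sums were 61472 and 77814 CPM.

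Grem1 was abundant in control chondrocytes and near the level of free RNA in CIA chondrocytes. Control chondrocytes held 1687 UMIs of Grem1, a summed level of 469.5 CPM (95% interval 447 to 492), in 155 of 330 cells. CIA chondrocytes held 7 UMIs, a level of 14.7 CPM (5.93 to 30.4), in 6 of 41 cells. The CIA level was 31.9-fold lower (15.4 to 79.3). All intervals are exact and cover counting error only; the spread among animals is unknown. Of the control cells with Grem1, 41 held over 10 UMIs and the highest held 113, whereas no CIA cell held over 2.

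The share of cells with a Grem1 UMI was 47.0% (exact binomial interval 41.5 to 52.5) in control and 14.6% (5.57 to 29.2) in CIA chondrocytes, at median depths of 8821.5 and 9481 UMIs per cell. Endothelial cells, a type that should lack the gene, had a UMI in 8.82% of control cells (57 of 646, median depth 11287.5) and in 7.01% of CIA cells (37 of 528, median depth 8758.5), nearly always 1 UMI. The interval of the CIA chondrocytes includes the endothelial share, so Grem1 above background was not detectable there at this depth. With every cell thinned to 4000 UMIs, which left out no cell, the shares were 36.4% and 7.32% in chondrocytes. In endothelial cells they were 1.86% and 2.65%. The thinned shares carry no interval, and the CIA one in chondrocytes rests on 41 cells.

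Most Grem1 UMIs of control chondrocytes sat in the Chad-high cells. These held 1618 of the gate's 1687 UMIs, at 645.5 CPM (614 to 678) and in 140 of 268 cells. Col1a1-high control chondrocytes had 10 UMIs in 8 of 49 cells, a level of 11.2 CPM (5.35 to 20.5). The remaining control cells of the gate had 59 UMIs in 7 of 13 cells, at 309 CPM (236 to 399). Their share of cells was 53.8%, beside 52.2% in Chad-high cells. Col1a1-high control cells thus had Grem1 near the endothelial level, with a share of cells of 16.3% (7.32 to 29.7) whose interval includes the endothelial 8.82%. The 10 Chad-high CIA cells held 2 UMIs in 2 cells, 22.8 CPM (2.76 to 82.4), which is 28.3-fold lower (7.82 to 234) than in Chad-high control cells. Col1a1-high CIA cells held 4 UMIs in 3 of 21 cells, at 15.5 CPM (4.22 to 39.6), which overlaps the control interval. Weighting the CIA subsets as they occurred in the control library, Grem1 was 23.3-fold lower in CIA chondrocytes.

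Among Chad-high control cells, Grem1 was lower in those with more Prg4. The 135 cells below the median Prg4 level had 968.9 CPM of Grem1 and a UMI in 92 of them (68.1%), and the 133 at or above it 280.3 CPM and a UMI in 48 (36.1%). Bmp2 stood at 131.6 and 131.7 CPM on those sides. Inhba stood at 44.4 and 171.6 CPM, with a UMI in 26 and 35 cells (19.3% and 26.3%). On the side with more Prg4, 1 cell held 95 of the 202 Inhba UMIs. Prg4 is made by the surface zone of articular cartilage, and this division was chosen after its values were seen.

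In lining cells, which lay mostly in different clusters in the 2 libraries, Grem1 was higher in the CIA library. Control lining cells held 166 UMIs in 49 of 217 cells, at 52.0 CPM (44.4 to 60.6), and CIA lining cells 1805 UMIs in 280 of 602 cells, at 196 CPM (187 to 206). The CIA level was 3.77-fold higher (3.22 to 4.45), and the share of cells with a UMI was 22.6% (17.2 to 28.7) in control and 46.5% (42.5 to 50.6) in CIA cells. Median depths were 12624 and 14330 UMIs, and with cells thinned to 4000 UMIs the shares were 12.4% and 28.1%. Cells with over 10 UMIs numbered 3 in the control and 58 in the CIA library. Lining cells with Grem1 were thus more frequent in the CIA library and held more of it.

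Grem1 was higher in the CIA library in both Clic5 classes at the cuts used, by a smaller ratio in the negative class. Clic5-positive cells had 37 UMIs in 19 of 126 control cells (23.3 CPM, 16.4 to 32.1) and 489 in 66 of 134 CIA cells (240.6 CPM, 220 to 263), a level 10.3-fold higher (7.40 to 14.9). Clic5-negative cells had 129 UMIs in 30 of 91 control cells (80.6 CPM) and 1316 in 214 of 468 CIA cells (184 CPM), 2.28-fold higher (1.90 to 2.75). In the control library Grem1 was lower in Clic5-positive than in Clic5-negative cells, and in the CIA library it was higher. The ratios moved with the marker cuts, which were changed together: with all cuts halved the ratio was 1.80 in the whole gate, 4.89 in Clic5-positive and 1.30 in Clic5-negative cells, and with all cuts doubled it was 6.22 in the whole gate and 20.8 in Clic5-positive cells. As a mean over cells the Clic5-negative ratio was 1.54, under 2-fold.

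Fibroblasts held most of the Grem1 of each library and at nearly the same level. They had 74.7% of the 9358 Grem1 UMIs of the control library and 77.4% of the 11166 of the CIA library, at 217 CPM (212 to 222) and 224 CPM (219 to 229), a ratio of 1.03 (0.999 to 1.06). Chondrocytes held 18.0% of the Grem1 UMIs in the control library and 0.0627% in the CIA library, and lining cells 1.77% and 16.2%. Outside the fibroblasts most Grem1 thus lay in chondrocytes in the control library and in lining cells in the CIA library, and these shares hold both cell numbers and levels.

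Fibroblast subsets differed more from each other than between the libraries. Fibroblasts with Sectm1a, Sectm1b or Cbln1, secreted or membrane proteins that lead a sublining subset, had 454 CPM of Grem1 in control and 482 CPM in CIA cells, in 73.2% and 69.5% of cells. Fibroblasts with the matrix genes Egfl6 or Mfap2 had 184 and 136 CPM, in 39.6% and 30.0% of cells. Fibroblasts with the water channel gene Aqp3 or with Fam180a had 16.5 and 14.0 CPM, in 13 of 102 and 20 of 150 cells. The order of the subsets did not change between libraries, and the ratios of CIA to control were 1.06 (1.01 to 1.11), 0.739 (0.679 to 0.805) and 0.845 (0.478 to 1.51). Fibroblasts with none of these markers (866 control and 1379 CIA cells) had 136 and 103 CPM, a ratio of 0.762 (0.713 to 0.815). The Sectm1/Cbln1 subset, richest of the 3 in Grem1, numbered 418 of 2331 control and 920 of 3265 CIA fibroblasts. At the control library's mix of subsets the fibroblast ratio was 0.915.

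In macrophages Grem1 was at background. They had 112 UMIs in 103 of 1076 control cells (7.27 CPM) and 183 in 166 of 2951 CIA cells (5.70 CPM), against 6.71 and 5.98 CPM in endothelial cells. The shares of cells, 9.57% and 5.63%, were read as free RNA.

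**Figure D1:**
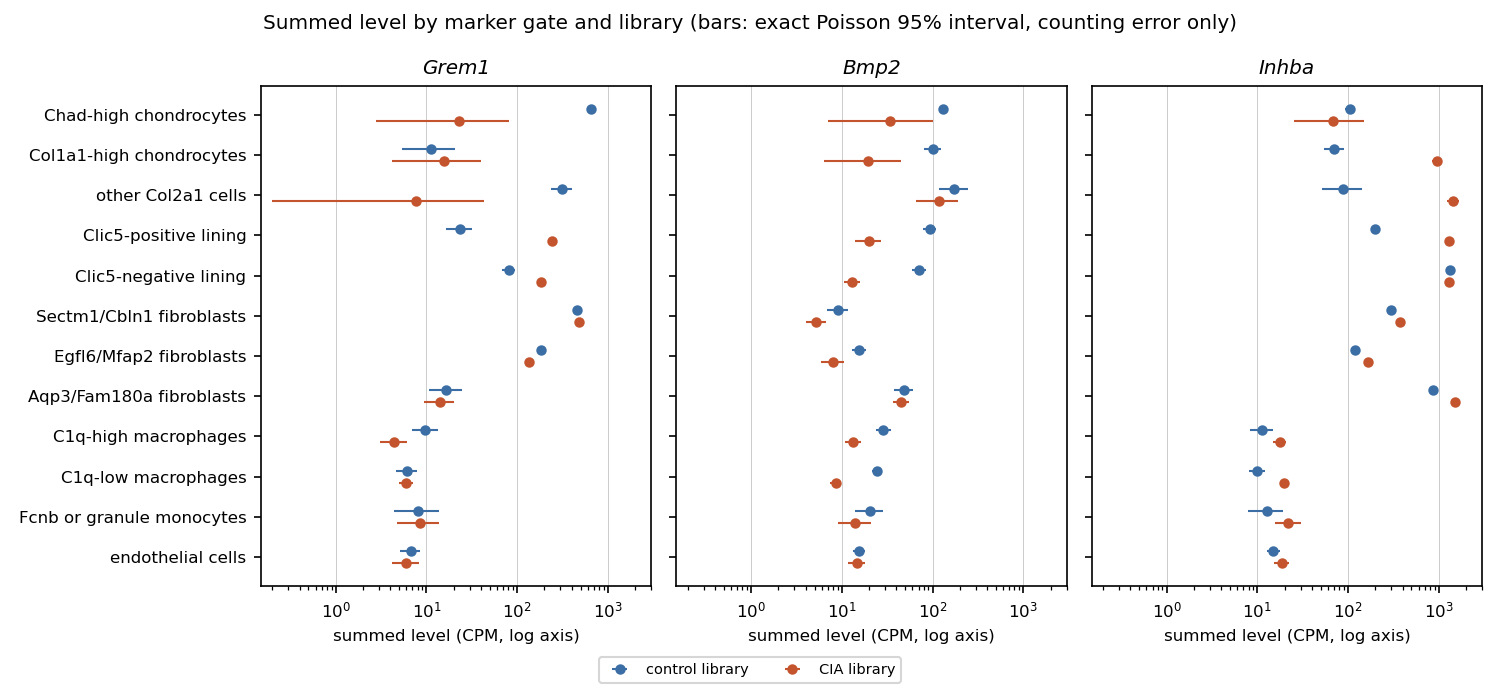
Summed level of Grem1, Bmp2 and Inhba (CPM, log axis) in each marker gate, with the control library in blue, the CIA library in orange and exact Poisson 95% intervals as bars. Grem1 stood at 645.5 CPM in Chad-high control and at 22.8 CPM in Chad-high CIA cells, whereas in both lining subsets the CIA points lie to the right of the control points.

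**Figure D2:**
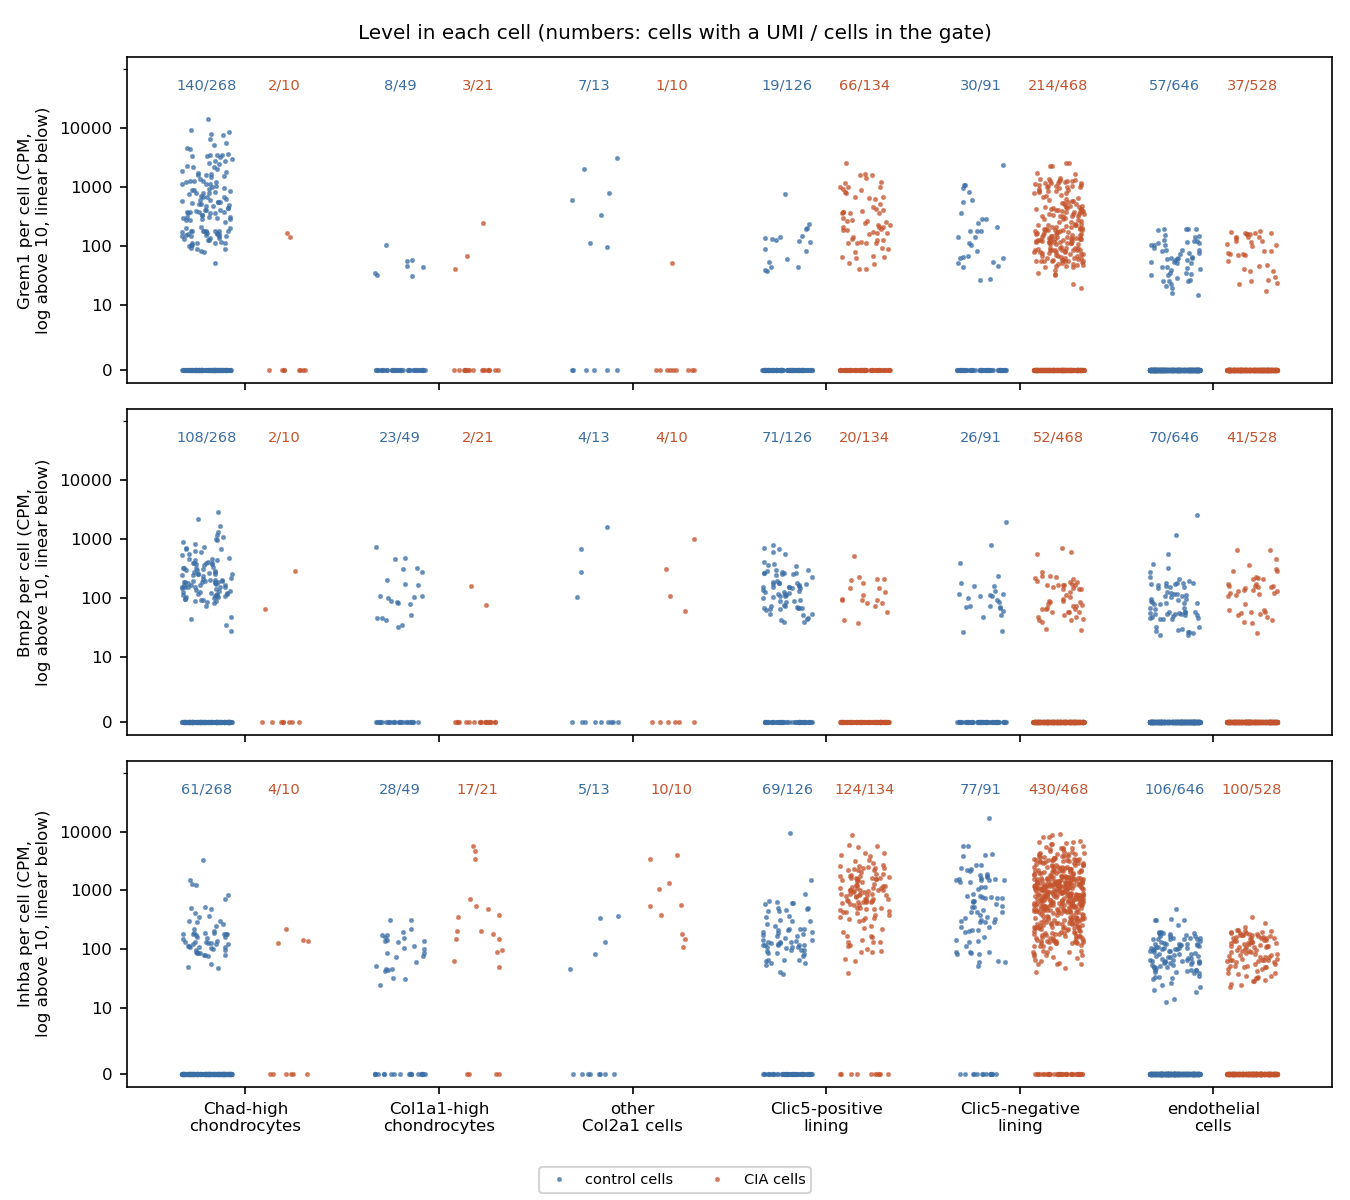
Level in each cell (CPM, log scale above 10 and linear below) for 6 gates, 1 point per cell, with the number of cells with a UMI over the number of cells in the gate written above. Many Chad-high control cells reach over 100 CPM of Grem1, the CIA cells of the chondrocyte gate with a Grem1 UMI number 6 of 41, and CIA lining cells with Grem1 are many in both Clic5 classes.

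Bmp2 was lower in the CIA library in chondrocytes, lining cells and macrophages. Control chondrocytes held 453 UMIs in 135 of 330 cells, at 126 CPM (115 to 138), the highest level of Bmp2 among the 5 broad gates. CIA chondrocytes held 23 UMIs in 8 of 41 cells, at 48.4 CPM (30.7 to 72.7), which was 2.60-fold lower (1.71 to 4.15). The shares of cells with a UMI were 40.9% (35.6 to 46.4) and 19.5% (8.82 to 34.9), beside 10.8% and 7.77% in endothelial cells. This difference was not seen with all marker cuts halved together, where the CIA to control ratio was 1.07 (0.844 to 1.35), and with clusters in place of gates the CIA level was 7.69-fold lower.

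Unlike Grem1, Bmp2 in control chondrocytes was in both kinds of cell. Chad-high control cells held 330 UMIs in 108 of 268 cells (131.6 CPM, 118 to 147) and Col1a1-high control cells 90 in 23 of 49 cells (100.5 CPM, 80.8 to 124), intervals that overlap. The Chad-high CIA cells held 3 UMIs in 2 of 10 cells, the Col1a1-high cells 5 in 2 of 21 cells, and the remaining CIA cells of the gate 15 in 4 of 10 cells. The Col1a1-high level was 5.20-fold lower (2.15 to 16.4) in CIA cells, on fewer UMIs than the minimum of 100 used for calls. At the control library's mix of subsets Bmp2 was 3.61-fold lower in CIA chondrocytes.

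In lining cells Bmp2 went from 263 UMIs in 97 of 217 control cells, at 82.4 CPM (72.8 to 93.0), to 133 UMIs in 72 of 602 CIA cells, at 14.5 CPM (12.1 to 17.1). The CIA level was 5.70-fold lower (4.61 to 7.08). The share of cells with a UMI was 44.7% (38.0 to 51.6) in control and 12.0% (9.48 to 14.8) in CIA lining cells, and the latter interval overlaps the 7.77% (5.63 to 10.4) of CIA endothelial cells. Thinned to 4000 UMIs the shares were 24.4% and 5.98%, beside 4.95% and 2.84% in endothelial cells. Lining cells thus held Bmp2 well above the endothelial level in the control library. In the CIA library the thinned share was above the endothelial one, while the summed level was like the endothelial 14.5 CPM. Some endothelial cells held several Bmp2 UMIs, so this is not a comparison with background.

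The Clic5-positive lining had Bmp2 in 71 of 126 control cells, mostly at 1 or 2 UMIs (93.7 CPM), and in 20 of 134 CIA cells (19.7 CPM), 4.76-fold lower (3.34 to 6.93). In Clic5-negative cells it was in 26 of 91 control cells (71.3 CPM) and 52 of 468 CIA cells (12.98 CPM), 5.49-fold lower (4.14 to 7.30). A control cell of the Clic5-negative class held 54 of its 114 UMIs, and without the highest cell in each library the CIA to control ratio was 0.315 in place of 0.182. Grem1 and Bmp2, antagonist and ligand, thus differed in opposite directions in the same lining gates.

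Macrophages had 389 Bmp2 UMIs in 160 of 1076 control cells, at 25.3 CPM (22.8 to 27.9), and 323 in 205 of 2951 CIA cells, at 10.1 CPM (8.995 to 11.2), 2.51-fold lower (2.16 to 2.92). The control share of 14.9% (12.8 to 17.1) lay above the endothelial 10.8% (8.55 to 13.5) with overlapping intervals, while the CIA share of 6.95% did not exceed the endothelial 7.77%. Endothelial cells are no clean reference for Bmp2, since up to 14 UMIs were in a control endothelial cell and up to 12 in a CIA endothelial cell. Macrophages rich in the complement genes C1qa, C1qb and C1qc were at 28.8 and 13.3 CPM (2.16-fold lower, 1.64 to 2.83) and those with little C1q at 24.7 and 8.58 CPM (2.88-fold lower, 2.37 to 3.50). Both C1q classes thus had less Bmp2 in the CIA library. The remaining cells of the gate, with Fcnb or granule genes, held 35 UMIs in 12 of 187 control and 25 in 7 of 250 CIA cells. Their ratio was 0.693 (0.398 to 1.19), on fewer UMIs than the minimum of 100 used for calls.

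Bmp2 in fibroblasts was low, at 15.7 CPM (265 of 2331 cells) and 9.59 CPM (228 of 3265 cells), shares of 11.4% and 6.98% close to the endothelial 10.8% and 7.77%. The exception was the Aqp3/Fam180a subset, with 48.2 CPM in 28 of 102 control cells and 45.2 CPM in 40 of 150 CIA cells. Its ratio was 0.937 (0.682 to 1.29), and 1 CIA cell held 25 of the 97 CIA UMIs. Without that cell the ratio was 0.699 (0.496 to 0.986), and without the highest cell in each library 0.766 (0.539 to 1.09). In endothelial cells Bmp2 stood at 15.5 and 14.5 CPM, with a ratio of 0.937 (0.713 to 1.23).

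Inhba was the most abundant of the 3 genes by UMIs, with 15894 in 2131 control cells and 37447 in 3756 CIA cells. In lining cells it stood at 772 CPM (742 to 803) in 146 of 217 control cells and at 1297 CPM (1274 to 1321) in 554 of 602 CIA cells, a ratio of 1.68 (1.61 to 1.76). The share of cells with a UMI was 67.3% (60.6 to 73.5) in control and 92.0% (89.6 to 94.1) in CIA cells, beside 16.4% and 18.9% in endothelial cells. A control cell held 480 of the 2463 control UMIs. Without the highest cell in each library the ratio was 2.04 (1.94 to 2.14), past 2-fold.

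The subsets of the lining differed. Clic5-positive cells had 319 UMIs in 69 of 126 control cells (200.5 CPM, 179 to 224) and 2649 in 124 of 134 CIA cells (1303 CPM, 1254 to 1354), 6.50-fold higher (5.79 to 7.32). Clic5-negative cells had 2144 UMIs in 77 of 91 control cells (1340 CPM, 1284 to 1398) and 9278 in 430 of 468 CIA cells (1295 CPM, 1269 to 1322), a ratio of 0.966 (0.922 to 1.01). Split at the class's median of immediate-early genes, which respond fast to stress, the ratio went both ways. It was 2.49 (2.14 to 2.91) below the median, on 21 control cells, and 0.845 (0.801 to 0.892) at or above it, on 70. A control cell with 480 of the class's 2144 UMIs lay at or above the median, since the control cells below it held 177. Without the highest cell in each library the ratio of the class was 1.20 (1.14 to 1.27), and the split was not repeated without those cells. The 2 classes had overlapping levels in the CIA library, while in the control library the Clic5-positive class was far below the other. With 44 of the 134 Clic5-positive CIA cells within 2-fold above the Clic5 cut, against 13 of 126 control cells, the class was less sharply set off in the CIA library.

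In chondrocytes Inhba was higher in the CIA library, opposite to Grem1 and Bmp2. Control chondrocytes held 341 UMIs in 94 of 330 cells, at 94.9 CPM (85.1 to 106), and CIA chondrocytes 438 UMIs in 31 of 41 cells, at 922 CPM (838 to 1013), a level 9.72-fold higher (8.42 to 11.2). The share of cells with a UMI was 28.5% (23.7 to 33.7) and 75.6% (59.7 to 87.6). A few cells held much of it: 1 control cell had 95 UMIs (27.9%), 1 CIA cell 143 (32.6%), and the 5 highest cells held 46.3% in control and 78.8% in CIA. The ratio was 3.79 with all marker cuts halved and 4.18 with clusters in place of gates.

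The higher Inhba level lay in the cells of the gate with little Chad. Chad-high cells had 261 UMIs in 61 of 268 control cells (104 CPM, 91.9 to 118) and 6 UMIs in 4 of 10 CIA cells (68.4 CPM, 25.1 to 149), intervals that overlap. Col1a1-high cells had 63 UMIs in 28 of 49 control cells (70.4 CPM, 54.1 to 90.0) and 247 in 17 of 21 CIA cells (955 CPM, 840 to 1082), 13.6-fold higher (10.3 to 18.2), or 7.37-fold without the highest cell in each library, since 1 CIA cell held 57.9% of the UMIs. The remaining cells had 17 UMIs in 5 of 13 control cells (89.2 CPM) and 185 in 10 of 10 CIA cells (1438 CPM), 16.1-fold higher (9.81 to 28.3), or 8.14-fold without 1 CIA cell that held 60.5% of the UMIs. At the control library's mix of subsets Inhba was 3.82-fold higher in CIA chondrocytes. The fibroblast genes Aqp3 and Fam180a together had a median of 300.2 CPM in control and 359 CPM in CIA Col1a1-high cells, of 256 and 907.0 CPM in the remaining cells and of 0 and 176 CPM in Chad-high cells, and the fibroblast subset with these genes was the one richest in Inhba; the part of such cells in the ratio was not tested.

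Fibroblasts held 57.2% of all Inhba UMIs in the control library and 48.9% in the CIA library, and lining cells 15.5% and 31.9%. The fibroblast level was 283 CPM in control and 475 CPM in CIA cells, a ratio of 1.68 (1.64 to 1.72), with a UMI in 60.1% and 64.2% of cells. The Aqp3/Fam180a subset, the lowest of the 3 for Grem1, was the highest for Inhba with 855 and 1493 CPM, ahead of the Sectm1/Cbln1 subset with 300.3 and 379 CPM and the Egfl6/Mfap2 subset with 120.2 and 167 CPM. Their ratios were 1.75 (1.64 to 1.87), 1.26 (1.20 to 1.33) and 1.39 (1.27 to 1.51). Fibroblasts with cell cycle genes had 282 CPM in 109 of 131 control cells and 606 CPM in 228 of 283 CIA cells, 2.15-fold higher (1.99 to 2.31).

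Macrophages had 164 Inhba UMIs in 143 of 1076 control cells (10.6 CPM) and 620 in 497 of 2951 CIA cells (19.3 CPM), with shares of 13.3% and 16.8% at or under the endothelial shares, and were read as background. Cells in no gate held 2782 control UMIs of Inhba, of which 1756 lay in 14 cells of a cluster led by Has1, Hbegf and Inhba itself. The ungated CIA cells held 2759, of which 1875 lay in 55 cells of a cycling cluster.

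To set the 3 genes beside all others, a rule of size called a gene where its ratio reached 2-fold or more and its whole interval exceeded 1.5-fold, given 100 or more UMIs in the 2 sums together. In chondrocytes Inhba was higher, as were 6.21% of the 3898 genes measured, and Grem1 and Bmp2 were lower, as were 5.87%. In lining cells Grem1 was higher, with 1.08% of 7468 genes, Bmp2 was lower, with 3.08%, and Inhba was neither. Bmp2 was lower in macrophages (3.8% of 9636 genes, with 0.425% higher), and in fibroblasts none of the 3 genes was past the rule (0.29% of 11024 genes higher, 1.4% lower). Since these contrasts chose the genes, nothing is read from their number.

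Among subsets, Grem1 was lower in Chad-high chondrocytes (2.99% of genes), and Inhba was higher in Col1a1-high chondrocytes (4.03%) and in the remaining chondrocytes (16.5%). In Clic5-positive lining cells Grem1 and Inhba were higher (3.8%) and Bmp2 lower (4.6%), and in Clic5-negative cells Grem1 was higher (0.544%) and Bmp2 lower (1.27%). Bmp2 was lower in C1q-high (3.5%) and C1q-low macrophages (3.26%), and Inhba was higher in cycling fibroblasts (0.671%). Scaling by TMM factors in place of the total moved the median log2 ratio of all genes by -0.38 in chondrocytes and by 0.14 in lining cells. Among genes past the rule, the higher ones then went from 51.4% to 15.2% in chondrocytes and from 26.0% to 42.4% in lining cells, while the directions of the 3 genes in both gates did not change.

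**Figure D3:**
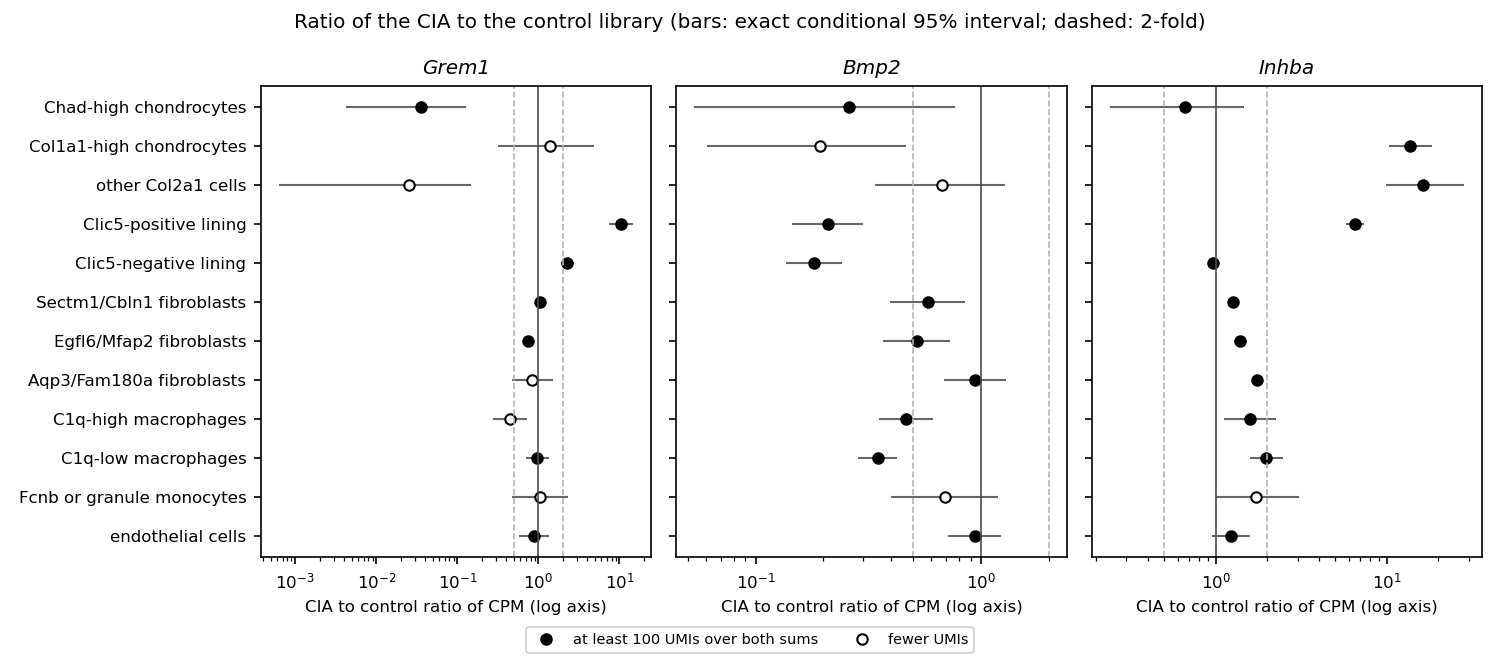
Ratio of the CIA to the control level (log axis) of each gene in each gate, with exact conditional 95% intervals, a solid line at equal levels, dashed lines at 2-fold in either direction, and open points where both libraries together held under 100 UMIs. Grem1 lies left of the lines in Chad-high chondrocytes and right of them in both lining subsets, Bmp2 left in the lining, and Inhba right in Col1a1-high chondrocytes and Clic5-positive lining.

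Immediate-early genes, transcription factors that respond within minutes to stress such as tissue dissociation, differed between the libraries in the same gates. Their summed level (15 genes) was 21194 CPM in control and 3896 CPM in CIA chondrocytes, and 6888 and 2786 CPM in lining cells. Within cells below the gate's median of those genes, Grem1 was 34.3-fold lower in CIA chondrocytes (60 of 146 control and 5 of 39 CIA cells with a UMI) and 2.80-fold higher in CIA lining cells (17 of 59 and 180 of 350). In those cells Bmp2 was 2.16-fold lower in chondrocytes and 3.55-fold lower in the lining, and Inhba 7.11-fold and 2.85-fold higher. All 6 directions were those of the whole gates. The median was taken over both libraries together, so the division did not match the libraries on these genes. In chondrocytes it kept 39 of the 41 CIA cells, so the directions there are no separate check. The part of immediate-early genes in the ratios was not tested.

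Ordered by level, Grem1 in the control library ran from chondrocytes over fibroblasts and lining cells to macrophages and endothelial cells, the last 2 with overlapping intervals. In the CIA library it ran from fibroblasts over lining cells to chondrocytes, endothelial cells and macrophages, where neighbours overlapped. Bmp2 ran from chondrocytes over lining cells and macrophages to fibroblasts and endothelial cells in the control library, the last 2 overlapping. In the CIA library it ran from chondrocytes to endothelial and lining cells, which overlapped, and then to macrophages and fibroblasts, which overlapped. Inhba ran from lining cells over fibroblasts, chondrocytes and endothelial cells to macrophages in the control library, with no overlap. In the CIA library chondrocytes stood between lining cells and fibroblasts, and macrophages and endothelial cells overlapped. Chondrocytes thus led for Bmp2 in both libraries and lining cells for Inhba.

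The genes were compared cell by cell as shares, with no test, since deeper cells show more of any gene. Of the 155 control chondrocytes with Grem1, 61 also had Bmp2 (39.4%), against 42.3% of those without Grem1. Inhba was in 34 of the 155 (21.9%), against 34.3% of those without Grem1. These Inhba shares hold the mix of subsets. They were 19.3% against 26.6% in Chad-high cells and, on 8 cells with Grem1, 62.5% against 56.1% in Col1a1-high cells. In CIA lining cells 267 of the 280 cells with Grem1 had Inhba (95.4%), against 89.1% of those without, at median depths of 16192 and 12590 UMIs. In control lining cells 40 of 49 cells with Grem1 had Inhba (81.6%), against 63.1%. Bmp2 was thus about as frequent in chondrocytes with its antagonist as in those without, at median depths of 9224 and 8469 UMIs.

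Of 76 listed genes of the TGF-beta and bone morphogenetic protein pathway, 69 were found among the genes listed for both. In the chondrocyte gate 32 were measured, of which 5 were higher and 10 lower, beside 6.21% and 5.87% of all measured genes, with a median log2 ratio of -0.48 beside 0.29 over all measured genes. Without the 3 genes described here, 29 were measured, of which 4 were higher; 8 were lower, and the median was -0.45. By role, with the same shares of all genes beside them, 1 of 8 ligands was higher and 3 lower, 2 of 9 secreted antagonists and modulators higher and 2 lower, 0 of 4 receptors higher and 1 lower, and 2 of 10 targets higher and 4 lower, with Smad7 counted among the targets as well as the Smads. The gate's subsets, which were mixed differently in the 2 libraries, gave other counts. In Chad-high cells, with 10 CIA cells, 26 were measured, 1 higher and 2 lower, beside 2.77% and 2.99% of 2708 genes. In Col1a1-high cells 13 were measured, 3 higher and 6 lower, beside 4.03% and 7.19% of 1391 genes. Counts of the whole gate thus hold its mix of subsets as well as levels. The list was written with earlier results of these data known.

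In chondrocytes Gdf10, a ligand of the bone morphogenetic protein family, went from 162 UMIs in 73 control cells to 1 UMI in the CIA cells, 21.4-fold lower (3.79 to 851). Bambi, a decoy receptor that lacks the kinase domain, went from 590 UMIs in 184 cells to 14 in 10 cells, 5.57-fold lower (3.29 to 10.3). Higher in CIA chondrocytes were Tgfbi, a matrix protein induced by TGF-beta, at 551 and 1584 CPM (2.87-fold higher, 2.64 to 3.13), and Fstl1, a secreted follistatin-like glycoprotein, at 245 and 691 CPM (2.82-fold higher, 2.48 to 3.21). Other members past the rule, named after their values were seen, were the targets Id3 and Id4, inhibitors of DNA binding, at 2.24-fold and 5.11-fold lower, and the inhibitory Smad gene Smad7 at 4.03-fold lower. Of the other targets Msx1 was 2.28-fold higher, and Id1 and Id2 were not past the rule, so the targets did not all differ in one direction.

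Among other antagonists of these ligands, Chrdl2, a chordin-like protein, had 224 UMIs in 76 control chondrocytes and 10 in 4 CIA chondrocytes, 2.96-fold lower (1.58 to 6.26). Fstl3, which binds activins, stood at 14.4 and 14.2 CPM in lining cells and at 17.1 and 17.0 CPM in fibroblasts, with ratios of 0.988 (0.701 to 1.41) and 0.995 (0.887 to 1.12). Fst, the follistatin gene, had 107 UMIs in control and 106 in CIA fibroblasts, a ratio of 0.826 (0.625 to 1.09), and 5 and 3 UMIs in lining cells, where Inhba was highest among the broad gates. Chrd, the chordin gene, had 198 UMIs in the fibroblasts of each library, a ratio of 0.833 (0.681 to 1.02). Nog and Chrdl1 had 78 and 48 UMIs in all cells and were not described further. Nbl1, an antagonist of the same family as gremlin that is named after its values were seen, was 2.29-fold higher (1.72 to 3.01) in CIA chondrocytes, with 228 and 69 UMIs. In lining cells it held 1626 and 3092 UMIs and in fibroblasts 18888 and 16366, with ratios of 0.660 (0.621 to 0.701) and 0.722 (0.707 to 0.738), under 2-fold. In the whole chondrocyte gate, with its different mix of subsets, Chrdl2 thus went with Grem1, and Nbl1 the other way. In Chad-high cells 8 secreted antagonists and modulators were measured, 0 higher and 1 lower, beside 2.77% and 2.99% of 2708 genes. The lower one was Grem1, so neither Chrdl2 nor Nbl1 was past the rule there, with 10 CIA cells.

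In lining cells 39 members of the list were measured, 2 higher and 10 lower, beside 1.08% and 3.08% of all measured genes, with a median of -0.16 beside -0.08 over all genes. Without the 3 genes 1 was higher and 9 were lower. Of 6 ligands 4 were lower, none of 9 receptors was past the rule, and 3 of 9 targets were lower. Ltbp1, which tethers latent TGF-beta to the matrix, had 61 UMIs in control and 507 in CIA lining cells and was the second gene that was higher, by 2.88-fold (2.21 to 3.83). Gdf15, a distant family member induced by stress, was 4.96-fold lower (3.51 to 7.08), and Id4 3.51-fold lower (2.68 to 4.61). The targets Id1 and Id2, named after their values were seen, were 2.80-fold and 2.20-fold lower. The Clic5 classes of the gate, mixed differently in the 2 libraries, gave other counts. In Clic5-positive cells 27 members were measured, 6 higher and 9 lower, beside 3.8% and 4.6% of 4131 genes. In Clic5-negative cells 36 were measured, 2 higher and 4 lower, beside 0.544% and 1.27% of 6438 genes.

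In fibroblasts 56 members were measured, 0 higher and 2 lower, beside 0.29% and 1.4% of all measured genes, with a median of 0.01 beside 0.04. In macrophages 39 were measured, 0 higher and 8 lower, beside 0.425% and 3.8%, with a median of -0.19 beside 0.08. The largest macrophage differences were those of Gdf15, from 803 to 174 CPM (4.61-fold lower, 4.46 to 4.75), of Bambi (3.82-fold lower, 3.35 to 4.35) and of Skil, a Smad co-repressor gene (2.93-fold lower, 2.70 to 3.18). Summed immediate-early genes were at 16651 CPM in control and 7253 CPM in CIA macrophages, and their part in these differences was not tested.

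**Figure D4:**
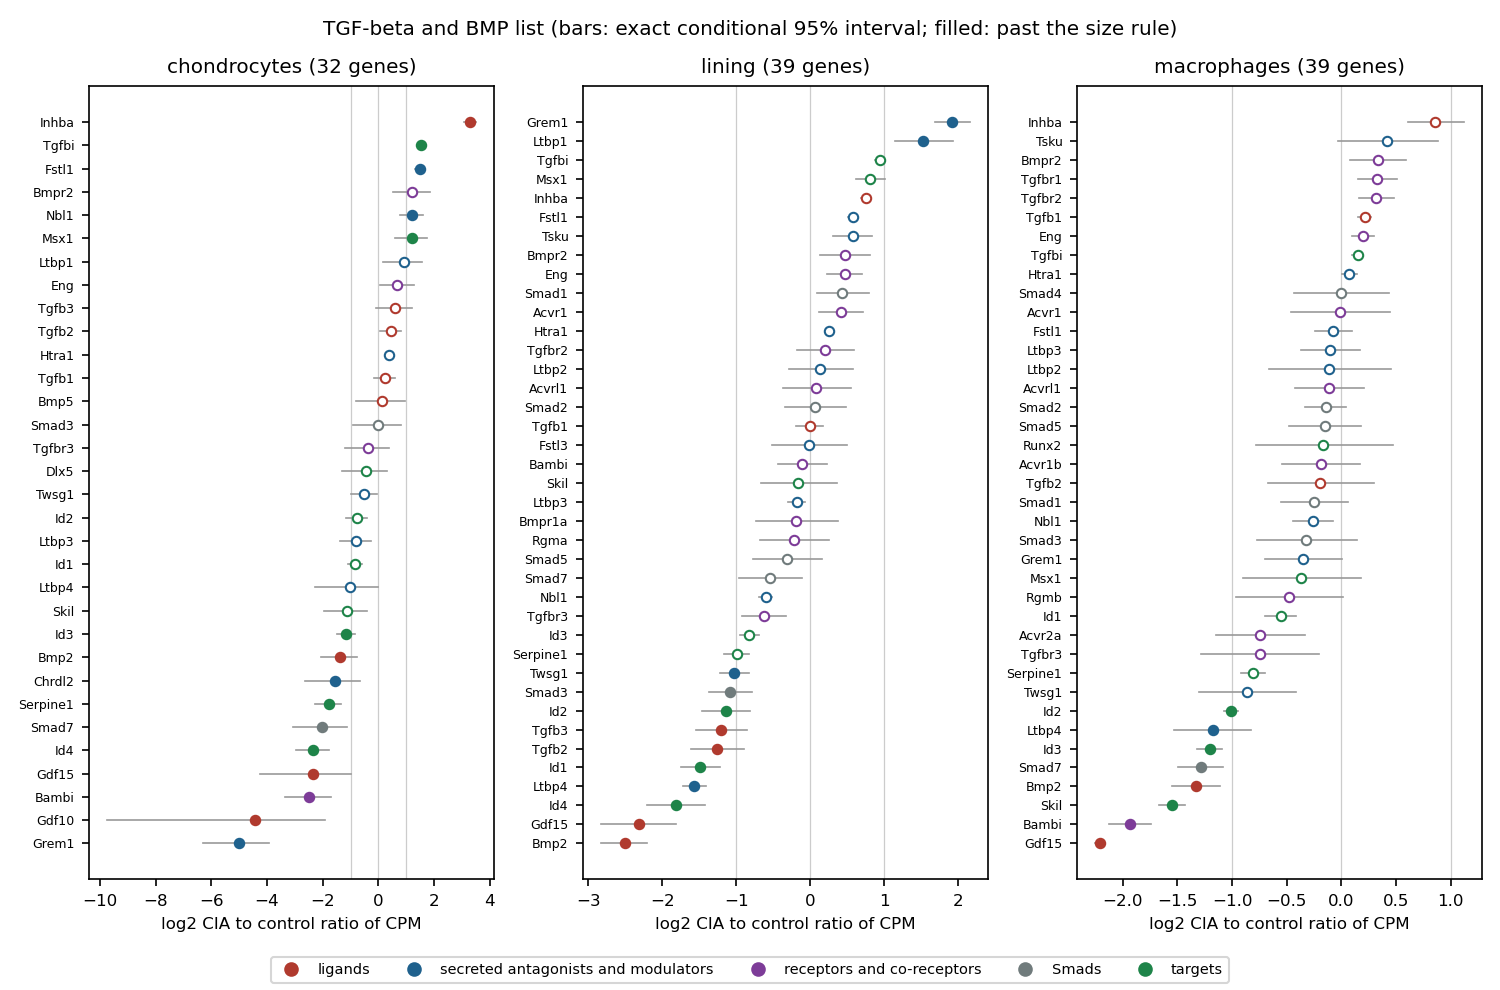
Log2 ratio of CIA to control for each measured gene of the pathway list in chondrocytes (32 genes), lining cells (39) and macrophages (39), ordered by ratio, coloured by role, with exact conditional 95% intervals and filled points for genes past the rule of size. Inhba tops the chondrocyte panel and Grem1 closes it, whereas Grem1 tops the lining panel and Bmp2 closes it.

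The genes whose levels ran most like each member were ranked by Pearson's r of log2(CPM + 1) over 32 sums (16 gates in 2 libraries) among 10330 genes. The sums share libraries and depth, so r is a description. For Grem1 these were Rnd3 (0.88), Aff2 (0.88), Ltbp3 (0.86), which binds latent TGF-beta, and the complement genes C1s (0.86) and Serping1 (0.86). For Bmp2 they were Nr1d1 (0.80), a nuclear receptor of the circadian clock, Cryab (0.79), a small heat shock protein, Eps8l2 (0.76), Kif21a (0.76) and Zfp385b (0.75). For Inhba they were Tnfaip6 (0.96), a hyaluronan-binding protein induced by inflammation, Rab15 (0.95), Tnc (0.94), the matrix protein tenascin C, Clec2dl1 (0.93) and Crabp2 (0.93), a retinoic acid carrier. The Bmp2 likeness was the weakest of the 3 sets.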

How the data were processed

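Cartilage cells of 2 libraries, 1 control and 1 CIA, had been profiled with a kit that reads the 3' end of transcripts, per the labels' protocols. The authors deposited unnormalized UMI counts, 1 matrix per library, on build mRatBN7.2 per the submitters' processing notes, with genes and cells already filtered (the lowest cell had 5095 and 4365 UMIs). The sources used here name no aligner, counting tool or strand setting. Reads of overlapping genes cannot be told apart. The barcodes had 3 blocks of 8 bases, with 96 kinds at each place, which the kit named in the labels does not have.

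Cells under 200 genes or over 20% mitochondrial UMIs were removed (45 control and 47 CIA cells), and doublets called by Scrublet were removed (65, 1.20%, and 159, 1.85%). Gates were cut on marker CPM, with cuts set after the marker distributions had been seen. Crtac1 and Pecam1, on the marker lists, were not found. UMIs were summed per gate and library, and CPM used the sum over the 18147 shared genes as the total. CPM carry exact Poisson, shares of cells exact Clopper-Pearson and ratios exact conditional 95% intervals. The ratio intervals and the rule of size were run on simulated Poisson sums, the model that the intervals assume. That run could not show how they behave where single cells hold many of the UMIs. No p-value was computed, since 1 library per group allows no test. Named were the 3 members in every gate, the 3 pathway genes of highest and the 3 of lowest log2 ratio past the rule in chondrocytes, lining cells and macrophages, the listed antagonists with at least 100 UMIs, and the 5 genes most like each member among those with at least 500 UMIs. The members and lists were chosen with earlier results of these data known. Alternatives changed the scaling, filters, doublets, cuts, gates, weighting of cells and top cells, and the cells below the immediate-early median and the control's mix of subsets were added after seeing the data. Leiden clusters (resolution 0.5, 2000 variable genes, 30 components, 15 neighbours) served as an alternative to gates. Tools were Python 3.11.15, scanpy 1.11.5, anndata 0.12.19, numpy 2.4.6, scipy 1.17.1, pandas 2.3.3, python-igraph 0.11.9, scikit-learn 1.9.0, matplotlib 3.10.9 and, for TMM factors, edgeR 4.0.16 in R 4.3.3.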

Additional observations from a re-analysis of the deposited data

Results flagged for a closer look

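Grem1 differed in opposite directions in 2 gates of the same libraries. Its log2 ratio of CIA to control was -4.99 in chondrocytes (1687 control and 7 CIA UMIs, in 155 of 330 and 6 of 41 cells) and 1.92 in lining cells (166 and 1805 UMIs, in 49 of 217 and 280 of 602 cells). With 1 library per group the difference between the gates was not tested. Within subsets the ratios were 0.0353 in Chad-high chondrocytes, 10.3 in Clic5-positive and 2.28 in Clic5-negative lining cells (1.30 with all marker cuts halved), while Col1a1-high chondrocytes, with 10 and 4 UMIs, gave 1.39 (0.317 to 4.80).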

How the results depend on the processing

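The log2 ratios of the 3 genes in chondrocytes and lining cells were recomputed under each alternative, and 53 of 78 values moved by less than their counting interval. Grem1 in chondrocytes stayed between -5.37 and -4.36 under all of them. With gate cuts halved, Bmp2 in chondrocytes turned to 0.10, Inhba in chondrocytes was 1.92, and in lining cells Grem1 was 0.85, Bmp2 -2.10 and Inhba 0.54. With gate cuts doubled, Inhba was 2.78 in chondrocytes, and in lining cells Grem1 was 2.64 and Inhba 1.29. With clusters in place of gates, Bmp2 was -2.94 in chondrocytes and -1.68 in the lining, and Inhba 2.06 and 0.45; Inhba is itself among the leading genes of a lining cluster. TMM factors gave Inhba 2.90 in chondrocytes and 0.89 in lining cells, and the total without the 50 most abundant genes 3.07 and 0.83. Doublets kept gave Inhba in chondrocytes 3.07. As a mean over cells, Grem1 in the lining was 1.62 and Inhba 1.09, and without the highest cell in each library Inhba in the lining was 1.03. Chosen after seeing the data, cells below the immediate-early median gave Inhba 2.83 in chondrocytes and, in the lining, Grem1 1.49, Bmp2 -1.83 and Inhba 1.51, and the control's mix of subsets gave Inhba in chondrocytes 1.93. The cause of these moves was not tested. Of the values in other gates and subsets, 217 stayed and 104 moved.

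The number of genes past the rule of size was 471 in chondrocytes, 311 in lining cells, 186 in fibroblasts and 407 in macrophages, and 728, 659, 345 and 624 with no minimum of UMIs. With a minimum of 20 UMIs it was 521 in lining cells and 297 in fibroblasts. The split of higher and lower genes moved with the total without the 50 most abundant genes as well, to 28.7% higher in chondrocytes. No paired analysis was possible because each group has 1 library, and leaving out a replicate was not possible for the same reason. The 41 CIA chondrocytes, 10 of them Chad-high, limit every value in that gate.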
